A study of Homo sapiens with 10 samples.

Results

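Homologous recombination repairs broken DNA by copying an intact sister sequence, and the Fanconi anemia pathway unhooks DNA strands that have been crosslinked to each other. The 42 genes described here encode the proteins of both processes and were given by name, by a rule that uses no measured value, although earlier results of these data were known when the list was drawn up. Each name matched 1 of the 20033 protein-coding genes of GENCODE 44, and 631 of the 178837 poly(A) peaks in the deposited list had their summit in the body of one of them or up to 600 bp past its 3′ end. The peaks come from poly(A) 3′-sequencing of IMR-32, a human neuroblastoma cell line, transduced with lentiviral shRNA and selected with puromycin. CDK12 was targeted with the constructs sh22 and sh98, CDK13 with sh701 and sh704, and GFP, which human cells lack, served as control. The labels name 2 libraries for each construct and 2 for GFP, 10 in all, described as biological duplicates. The authors merged the reads of all 10 libraries before they called peaks, so each peak has a single value over CDK12-depleted, CDK13-depleted and control cells, and no difference between these groups could be examined.

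The breaks are first trimmed to single-stranded DNA by MRE11, RAD50, NBN, RBBP8, EXO1 and DNA2, after which BRCA1, BARD1, PALB2 and BRCA2, with RAD51B, RAD51C, RAD51D, XRCC2 and XRCC3, prepare the trimmed ends for strand exchange. Crosslinks are recognised by the Fanconi core complex, which attaches ubiquitin to FANCD2 and FANCI, and the joined DNA intermediates are taken apart by BLM with TOP3A, RMI1 and RMI2 or are cut by nucleases. Most of these genes are long, and CDK12, a kinase of elongating RNA polymerase II, is known for its part in the expression of long DNA repair genes. The study asked whether loss of CDK12 or CDK13 leads to cleavage and polyadenylation inside genes, before their annotated ends.

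In this assay an oligo(dT) primer starts the copy at a poly(A) tail, so a peak ends where the tail begins, but the primer can also start at a run of A inside a transcript. A genomic stretch rich in A just past a peak and a poly(A) signal just before it were therefore recorded for every peak, on the strand of the gene. The list has no strand of its own. A peak was called A-rich when at least 7 of the 10 bases past its 3′ edge were A and A-poor otherwise, and the signal was AATAAA or ATTAAA starting 10 to 40 bases upstream of that edge. Summit pileup is the number of reads, extended to 100 bp, that cover the summit after merging, and no peak in the list passes 200, the most that 1 read per position and strand allows, so it is a compressed measure and not an expression level. A peak was terminal when its summit lay from 200 bp upstream to 600 bp downstream of the end of any annotated transcript of the gene, and otherwise exonic or intronic.

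The strongest A-poor intronic peak with a signal was taken from each gene, and those of BRIP1, RAD50 and BRCA1 had the highest pileups, 27, 26 and 25. Those of BARD1 and BLM, with pileups of 9 and 11, were added outside the rule because the study follows these genes. The last sequence is the strongest intronic peak of all, in FANCB, which was also added after its value was seen. Each is shown as 45 bases up to the 3′ edge and 15 past it, on the strand of the gene (GRCh38), with the signal in capitals. BRIP1 is at chr17:61789568-61789627 (minus strand, intron 10), RAD50 at chr5:132594867-132594926 (plus strand, intron 11), BRCA1 at chr17:43162194-43162253 (minus strand, intron of a longer transcript), BARD1 at chr2:214786254-214786313 (minus strand, intron 3), BLM at chr15:90719695-90719754 (plus strand, intron 1) and FANCB at chrX:14862968-14863027 (minus strand, intron 3).
BRIP1 intron 10: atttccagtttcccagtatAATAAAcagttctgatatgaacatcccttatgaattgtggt
RAD50 intron 11: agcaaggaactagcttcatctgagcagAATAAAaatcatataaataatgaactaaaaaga
BRCA1 upstream intron: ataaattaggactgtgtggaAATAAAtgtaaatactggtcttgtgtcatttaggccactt
BARD1 intron 3: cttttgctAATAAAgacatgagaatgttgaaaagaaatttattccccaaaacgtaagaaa
BLM intron 1: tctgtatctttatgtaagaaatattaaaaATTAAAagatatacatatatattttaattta
FANCB intron 3: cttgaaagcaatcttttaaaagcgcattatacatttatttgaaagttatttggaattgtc
The signal began 25, 17, 24, 36 and 15 bases before the edge in BRIP1, RAD50, BRCA1, BARD1 and BLM, and the FANCB peak had none. The 10 bases past the edge held 3, 6, 2, 5, 4 and 3 A, in the order shown.

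The A-rich intronic peaks of BLM and RAD50, each with a pileup of 23 and among the highest of that kind, are shown in the same way with the 10 bases past the edge in capitals. They are at chr15:90732691-90732750 (plus strand, intron 1) and chr5:132589639-132589698 (plus strand, intron 8).
BLM intron 1, second site: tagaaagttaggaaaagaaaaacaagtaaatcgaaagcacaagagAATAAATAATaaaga
RAD50 intron 8: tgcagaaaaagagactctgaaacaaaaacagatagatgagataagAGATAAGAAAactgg
Each held 7 A in those 10 bases, the lowest number that counts as A-rich.

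The strongest terminal peaks were those of MUS81, FANCI and FANCA, with pileups of 72, 63 and 57, and are shown as 30 bases with the signal in capitals where there was one. MUS81 is at chr11:65866516-65866545 (plus strand), FANCI at chr15:89316453-89316482 (plus strand) and FANCA at chr16:89738397-89738426 (minus strand). The MUS81 peak lay at the end of the main transcript, whereas those of FANCI and FANCA lay 739 bp and 976 bp upstream of it at ends of other annotated transcripts, in FANCI in intron 37 of the main one, and their peaks at the main end had pileups of 34 and 28.
MUS81 main end: aggcagagttaggaatggaacccagggcct
FANCI other end: aaAATAAAtgaaatgcctgagttaatgtga
FANCA other end: aaAATAAAccactggtcccagagcagagga
All 3 peaks were A-poor, with 0, 0 and 2 A. Each also lay in a gene on the opposite strand, EFEMP2 for MUS81, POLG for FANCI and ZNF276 for FANCA, and with no strand in the list these reads cannot be assigned to 1 gene of the pair. At the FANCI peak AATAAA or ATTAAA was present on both strands, 29 bases upstream on the FANCI strand and 34 on the POLG strand.

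Each of the 42 genes had a terminal peak, but only 30 had one that lay in no other annotated gene. An intronic peak was found in 34 (81.0%), beside 77.0% of the other protein-coding genes with a terminal peak and an intron. Of the 631 peaks, 142 (22.5%, 95% Wilson interval 19.4 to 25.9) were terminal, 88 (13.9%, 11.5 to 16.9) exonic and 401 (63.5%, 59.7 to 67.2) intronic. In the 13407 protein-coding genes outside the list that had both a terminal peak and an intron, the shares were 19.6%, 10.1% and 70.3%. The 8 genes without an intronic peak were RAD54L, RECQL4, FANCE, FANCF, FANCG, UBE2T, MUS81 and EME1, of which FANCF has a single exon. The 6 genes under 12 kb held no intronic peak between them, and RAD54L, a motor protein of strand exchange, had none although it spans 32.0 kb.

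**Figure D1:**
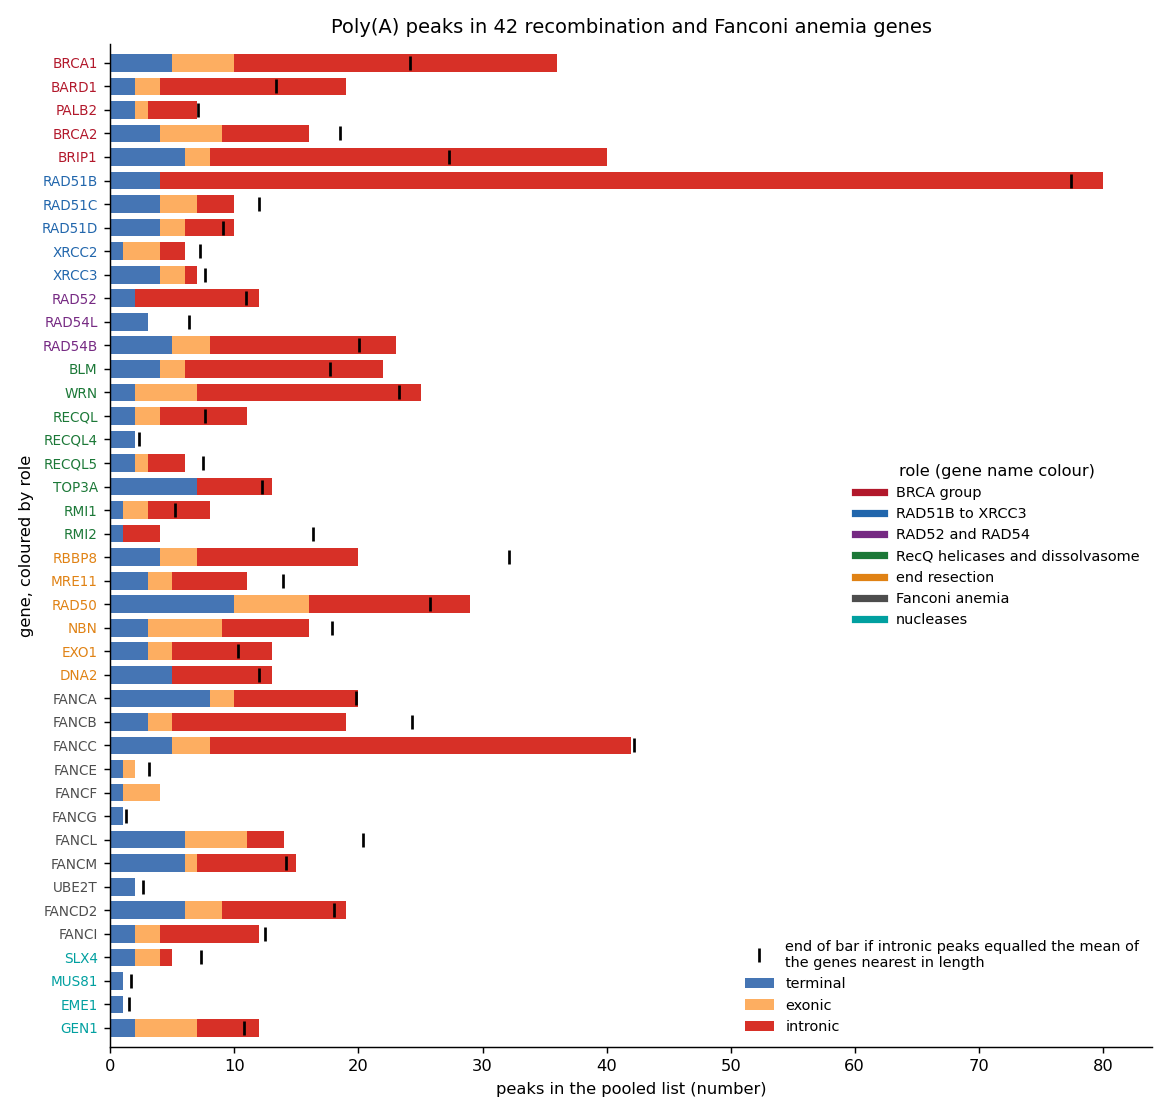
Peaks of each of the 42 genes in the pooled list, as bars of terminal (blue), exonic (orange) and intronic (red) peaks, with gene names coloured by role; the black tick marks where the bar would end if the gene had the mean number of intronic peaks of the 200 genes nearest in length. RAD51B has the longest bar, with 80 peaks, and BRCA1 and BRIP1 reach well past their ticks.

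To set the counts beside gene length, each gene with an intron was ranked among the 200 protein-coding genes nearest in length, out of those with a terminal peak and at least 1 intron, 100 shorter and 100 longer. The 401 intronic peaks compare with 399 as the sum of the neighbours' mean counts, a ratio of 1.01. Of the 41 ranked genes, 18 had more intronic peaks than the median of their neighbours, 15 fewer and 8 the same number. At or above the 90th percentile of their neighbours were 4 of 41 genes (BRCA1, BRIP1, RECQL and RMI1), where 14.4% of all 13448 protein-coding genes reached that level. With only peaks that lay in no other annotated gene, 3 of 29 ranked genes reached it (BARD1, BRIP1 and RMI1), beside 14.5% of all genes, and the ratio was 0.890. With the main transcript of each gene alone, 2 of 35 did (XRCC3, with all its peaks in the opposite-strand gene KLC1, and RMI1), beside 15.3%. Among the few peaks with a −log10 q of at least 20, 7 of 27 did (BRIP1, RAD52, BLM, RMI2, RAD50, NBN and FANCA), beside 12.4%, but these 27 genes held 10 intronic peaks in all against 6.78, and in NBN and FANCA the only such peak lay at an opposite-strand gene. By the counts without a q limit the genes as a group held about as many intronic peaks as other genes of their length.

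**Figure D2:**
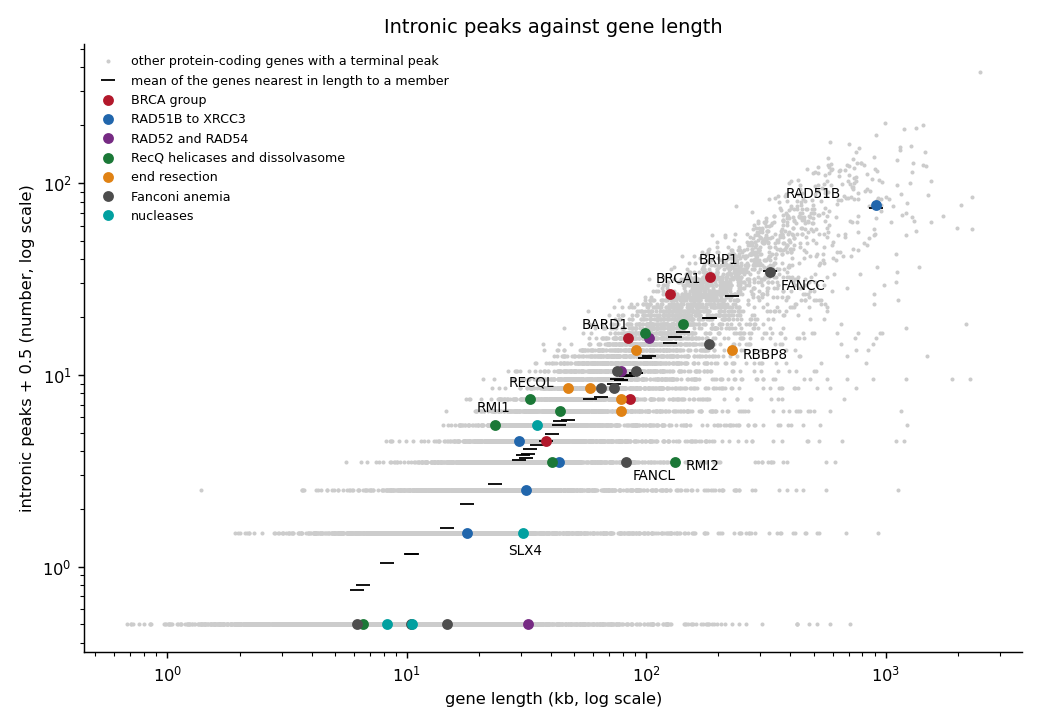
Intronic peaks plus 0.5 against gene length, both on log scales, for the 41 ranked genes (coloured by role), the other protein-coding genes with a terminal peak (grey) and the mean of the genes nearest in length to each ranked gene (black dashes). The 41 genes follow the grey cloud from no peak in the shortest to 76 in RAD51B, with BRCA1, BRIP1, RECQL and RMI1 above and RMI2, FANCL and SLX4 below.

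The BRCA group held 84 intronic peaks in 5 genes against 56.4 from the neighbours' means, a ratio of 1.49, and the other 6 roles had ratios from 0.723 to 1.03. Within the group the genes differed. BRIP1, a helicase that binds BRCA1, had 32 intronic peaks in 184 kb against a neighbours' mean of 19.3, and 11% of its neighbours had at least as many. BRCA1, the ubiquitin ligase that promotes end resection, had 26 in 126 kb against a mean of 14.2, and 4.5% of its neighbours had at least as many. BARD1, its partner in the ligase, had 15 in 84.0 kb against 9.35, with 16.0% of neighbours as high. PALB2, which bridges BRCA1 and BRCA2, had 4 against 4.04, and BRCA2, which acts on single-stranded DNA at the break, had 7 in 85.2 kb against 9.53. With the main transcript of each gene alone, the ratio of the 4 genes that could still be ranked was 1.06. This count leaves out BRIP1, which had 36 intronic peaks there but no terminal peak, so it is not like the 1.49 of all 5 genes. In peaks of no other gene the ratio of all 5 was 1.24.

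The count of BRCA1 turned on transcripts that start far upstream. The main transcript of BRCA1 spans 81.1 kb, whereas the gene with all its transcripts spans 126 kb, and 16 of the 26 intronic peaks lay outside the main transcript. These 16 had pileups from 9 to 39, none was A-rich, and all lay in another annotated gene, 10 of them in the opposite-strand gene NBR2. The other 10 had pileups from 8 to 17, 6 were A-rich, and none lay at an opposite-strand gene. The strongest, 32.8 kb from the start with a pileup of 39, had no signal on the BRCA1 strand and AATAAA or ATTAAA 24 bases upstream on the NBR2 strand. With the main transcript alone BRCA1 had 13 intronic peaks against a neighbours' mean of 10.6, and with peaks in no other gene it had 10 against 13.0, so its place among the highest 10% did not hold in either count.

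BRIP1 kept its place without other genes, since all 32 of its intronic peaks lay in no other gene, and 9.0% of neighbours then had at least as many. In the count of all peaks its 32 equalled the 90th percentile of its neighbours, and it was no longer at or above that level with the 100 genes nearest in length, with genes matched on summed intron length or with peaks closer than 100 bp merged. Its pileups ran from 4 to 27, 23 of the 32 were A-rich, and 3 of the 9 A-poor peaks had a signal. The peaks were spread over the gene, from 10.1 kb to 166 kb after the start. Its strongest intronic peak, with a pileup of 27 at 73.6 kb in intron 10, is the first sequence shown above and came close to the strongest terminal peak of the gene, which had 30. BRIP1 had no peak at the end of its main transcript, and that terminal peak lay 2223 bp upstream of it.

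BARD1 and BLM are genes for which the study showed termination inside the gene, in cells treated with an inhibitor of CDK12 and CDK13. Those cells are not among the libraries pooled here. In BARD1 the 15 intronic peaks lay in no other gene, had pileups from 5 to 16, and 10 were A-rich. They ran from 3.6 kb to 79.1 kb after the start, and the strongest, of 16 at 58.5 kb and at 77.2 kb, had 10 and 9 A past the edge. The terminal peaks of BARD1 had pileups of 17 and 15, so its strongest intronic and terminal peaks were of like height. In BLM, the helicase that unwinds joined DNA together with TOP3A, 16 intronic peaks stood in 98.8 kb against a neighbours' mean of 11.7, and 23.5% of neighbours had at least as many. Of these, 11 were A-rich, including the strongest, with a pileup of 23 at 15.3 kb in the first intron, and the signal-bearing A-poor peak of 11 lay nearer to the start at 2.35 kb. The strongest terminal peak of BLM, with 32, lay 803 bp upstream of the main end, and the peak at that end had 17.

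Of RAD51B, RAD51C, RAD51D, XRCC2 and XRCC3, related proteins that assemble into complexes acting in strand exchange, RAD51B had the most intronic peaks of all 42 genes, 76, and is also the longest at 910.4 kb. Its neighbours averaged 73.4, and 47.9% of the 167 genes near it in length had at least as many. Of the 76, 63 were A-rich, the median pileup was 6.5, and the highest was 17, at 427 kb in intron 7, A-poor and with AATAAA 25 bases upstream. Its terminal peak at the main end had a pileup of 10, lower than this intronic peak. RAD51C, RAD51D, XRCC2 and XRCC3 are shorter, from 17.9 to 43.0 kb, and had 3, 4, 2 and 1 intronic peaks. All of these but the single XRCC3 peak were A-rich. All peaks of RAD51D lay in another gene entry on the same locus, and all 10 were therefore left out of the counts in no other gene.

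RAD52, which anneals single strands, had 10 intronic peaks against 8.89, and RAD54B, a relative of RAD54L, had 15 against 12.1. In RAD52 7 of the 10 were A-poor, and the strongest, with a pileup of 23 in intron 1, had AATAAA 39 bases upstream and 4 A downstream. Beside A-poor peaks of other genes of its length, RAD52 and BRCA1 were the 2 genes of 41 at or above the 90th percentile, where 14.3% of all genes were. For RAD52, 6 of the 10 intronic peaks lay outside its 38.0 kb main transcript. With peaks in no other gene, RAD52 had 4 against 8.035 and RAD54B 4 against 11.1. In that count 82.5% and 86.0% of their neighbours had at least as many.

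Of the RecQ helicases and their partners, RECQL had 7 intronic peaks in 32.8 kb against a mean of 3.61, and RMI1, which joins BLM and TOP3A in dissolving joined DNA, had 5 in 23.3 kb against 2.19. At least as many were found in 13.0% and 7.0% of their neighbours. RMI1 had 2.28 times the mean of its neighbours, the highest ratio of the 42 genes, and all 5 of its intronic peaks were A-rich and in no other gene. The RECQL peak nearest the 3′ end, with a pileup of 20, lay in PYROXD1 on the opposite strand. WRN, a helicase with a nuclease domain, had 18 against 16.2, TOP3A, a topoisomerase, 6 against 5.25, and RECQL5 3 against 4.43. RECQL4 had none in 6.56 kb, where its neighbours averaged 0.3. RMI2, the small partner of RMI1, had the lowest ratio among the genes with an intronic peak, 3 peaks in 132 kb against 15.3, and 96.0% of its neighbours had at least as many. Its main transcript covers 6.30 kb of those 132 kb and held no intronic peak. The strongest of the 3, with a pileup of 33, lay in SOCS1 on the opposite strand, with a signal 38 bases upstream on that strand and none on the RMI2 strand.

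Among the end resection genes, RAD50, which holds broken ends together, had the most terminal peaks of all 42 genes, 10, of which 1 lay at the main end. Its 13 intronic peaks compare with a mean of 9.74, and the 2 strongest, of 26 and 23, are shown above. All 29 peaks of RAD50 lay in a second entry that spans the locus, so none counts as being in no other gene. EXO1, an exonuclease, had 8 against 5.30, DNA2, a nuclease and helicase, 8 against 7, and MRE11, the nuclease that starts resection, 6 against 8.89. RBBP8, also called CtIP, which activates MRE11, had 13 in 228 kb against 25.1, with 80.5% of neighbours as high, while its main transcript spans 93.2 kb and held 11 against 12.1. NBN, which recruits MRE11 and RAD50, had 7 against 8.88. Of those, 6 lay outside its main transcript and inside an opposite-strand gene, 5 in OSGIN2 and 1 in DECR1, with pileups from 17 to 33 and none A-rich, and the remaining 1 had a pileup of 11.

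Of the 11 Fanconi anemia genes, FANCC, a core complex subunit, had the most intronic peaks, 34 in 328 kb, against a mean of 34.2. FANCA had 10 against 9.79, FANCD2 10 against 8.99, FANCI 8 against 8.46 and FANCM, the helicase that anchors the core complex to DNA, 8 against 7.12. FANCL, the ubiquitin ligase of the core complex, had 3 in 82.2 kb against 9.38, and 90% of its neighbours had at least as many, but with its main transcript alone it had 11 against 10.8. FANCE, FANCF, FANCG and UBE2T, the enzyme that passes ubiquitin to FANCL, had none and are 14.8 kb or shorter. FANCB, a core complex subunit, had 14 in 183 kb against 19.3, with a main transcript of 29.7 kb. Its intron 3 held the strongest intronic peak of all 42 genes, with a pileup of 42, a fold of 20.8 over the local background and a −log10 q of 47.2, 10.2 kb from the start. This peak lay in no other gene, had 3 A past its edge, and had none of 12 hexamers (AATAAA and its variants) 10 to 40 bases upstream on the FANCB strand. The other 13 intronic peaks of FANCB had pileups from 5 to 13. Its strongest terminal peak had 20 and lay in another annotated gene, NPM1P9, so it may not be an end of FANCB.

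The 4 nuclease genes SLX4, MUS81, EME1 and GEN1 had 6 intronic peaks against 8.30. GEN1, which cuts Holliday junctions, held 5 of these, all in SMC6 on the opposite strand. SLX4, the scaffold for several nucleases, held 1 in 30.4 kb against 3.30. MUS81 and EME1, which form a nuclease together, had 1 peak each, terminal and at the main end, with pileups of 72 and 44, and both peaks lay at an opposite-strand gene.

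**Figure D3:**
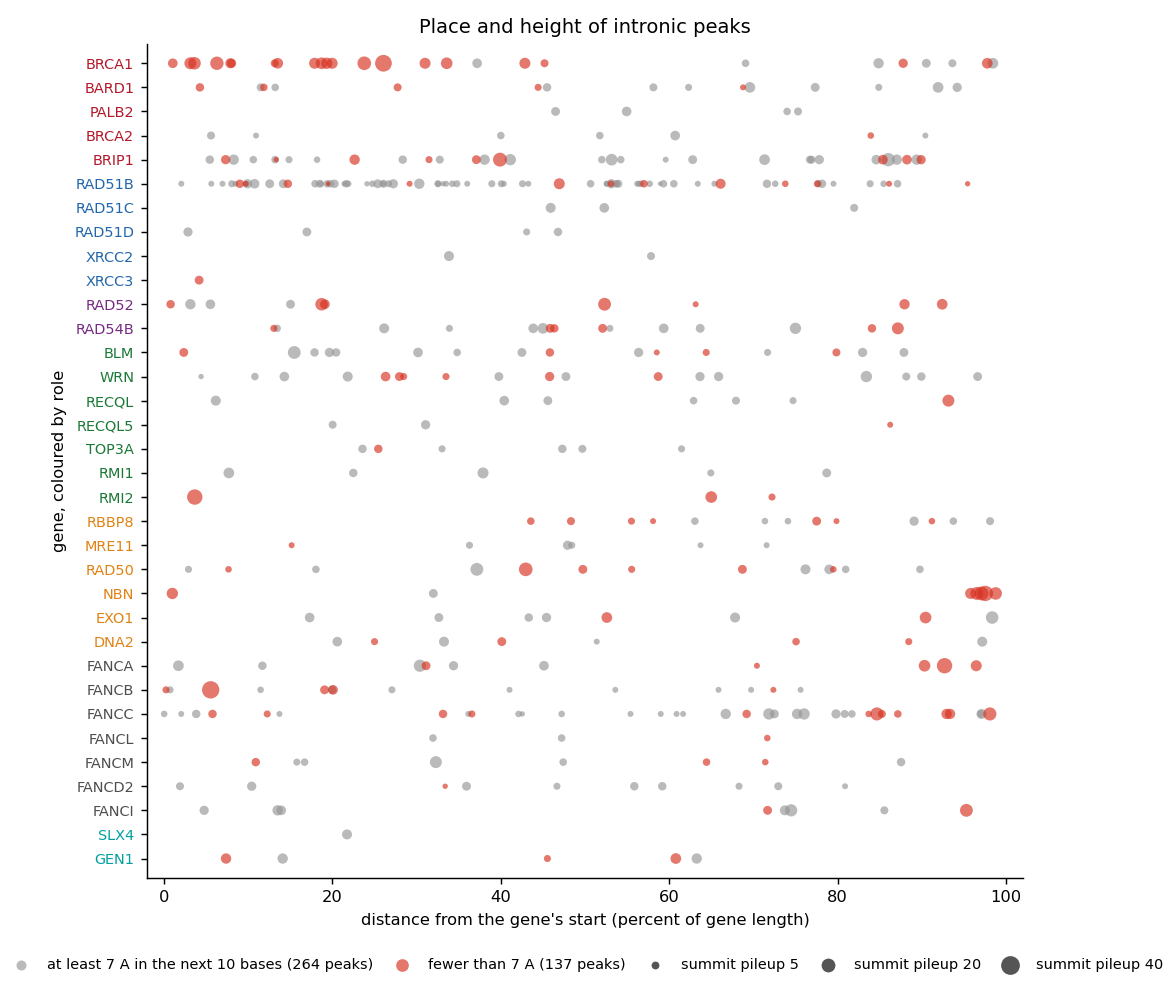
The 401 intronic peaks of the 34 genes that had any, placed by distance from the gene's start in percent of gene length, with area in proportion to summit pileup; grey marks the 264 A-rich peaks and red the 137 A-poor ones. In BRCA1 the first 16 peaks are red and in NBN the last 5 are, the stretches where NBR2 and OSGIN2 or other entries overlap.

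Along the genes, 36.4% (31.8 to 41.2) of the intronic peaks lay in the first of 3 equal stretches of the gene, 33.2% in the middle and 30.4% in the last, beside 35.8%, 34.9% and 29.2% in other genes. Of the 332 that lay in an intron of the main transcript, 10.5% were in the first intron, which holds 9.72% of the intron length of these genes. In other genes, the first intron held 27.4% of such peaks and 24.8% of the length. The first introns of these genes were short, with a median of 2151 bp over the 41 genes with an intron beside 9490.5 bp as the median over their neighbours, and 30 of 41 genes had one shorter than their own neighbours' median. They also had more introns, with a median of 14 against 10.5, and 34 of 42 genes had at least as many as their neighbours' median. The motif GGTGAG, together with the motif GGTAAG and the motif GTGAGT, which resemble the start of an intron where U1 snRNP binds, were counted on the gene's strand against AATAAA. The median ratio was 0.684 beside 0.809 for the neighbours, with 25 of 41 genes below their own neighbours, FANCG having no AATAAA and so no ratio. AATAAA itself was at a median of 0.914 per kb beside 0.809, and the GC content was 41.7% beside 42.4%.

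Of the 401 intronic peaks, 264 (65.8%, 61.1 to 70.3) were A-rich, beside 68.3% in other genes. On the opposite strand, read at the other edge, 4.99% were. In 25 of the 34 genes over 50% of the intronic peaks were A-rich, in PALB2, RAD51C, RAD51D, RMI1, SLX4 and XRCC2 each of them was, and in RMI2 and XRCC3 none was. Where a peak lay in no other gene the share was 75.0% (69.9 to 79.5), beside 72.5% in other genes. At an opposite-strand gene it was 26.4% (16.4 to 39.6), 14 of 53 peaks in 15 genes, beside 43.8% in other genes. Of those 53 peaks 18 (34.0%, 22.7 to 47.4) had AATAAA or ATTAAA on the opposite strand, beside 16.8% in other genes, and 5 (9.43%, 4.10 to 20.3) had it on the strand of the recombination or Fanconi gene, beside 12.5%. Over all intronic peaks 14.5% (11.4 to 18.2) had a signal, beside 13.6% in other genes. Of the A-poor 25.5% (19.0 to 33.4) had one and of the A-rich 8.71% (5.88 to 12.7), beside 24.7% and 8.41%. Taken over all intronic peaks, the A-rich share and the share with a signal lay near those of other genes. At opposite-strand genes the A-rich share was lower and the share with a signal on the opposite strand higher. Of the 53 peaks there, BRCA1 held 10 and NBN 6, none of them A-rich. Whether the lower A-rich share is a trait of the group was not tested.

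**Figure D4:**
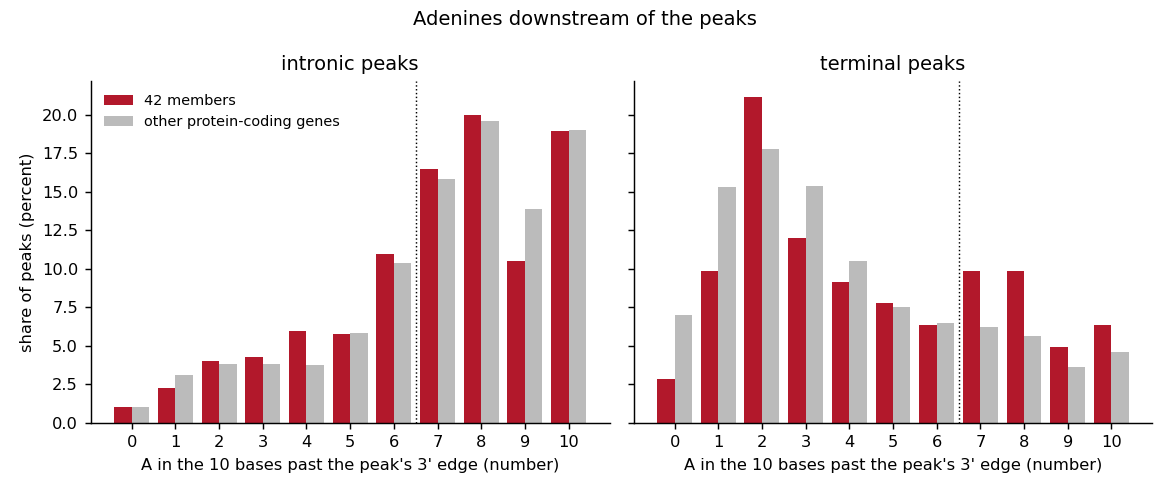
Share of intronic (left) and terminal (right) peaks by the number of A in the 10 bases past the 3′ edge, for the 42 genes (red) and other protein-coding genes (grey), with the dotted line at the limit between A-poor and A-rich. Intronic peaks pile up to the right of the line, 65.8% in the 42 genes and 68.3% in others, and terminal peaks to the left, with 31.0% and 20.04% A-rich.

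The 35 A-poor intronic peaks with a signal lay in 20 of the 42 genes, 23 of them in no other gene. These 35 met both sequence criteria and made up 25.5% of the A-poor intronic peaks, beside 24.7% in other genes. Their pileups ran from 5 to 27 with a median of 11, 29 had AATAAA and 6 ATTAAA. BRCA1, BRIP1 and FANCA had 3 each, RAD51B had 4, and SLX4, MUS81, EME1 and GEN1 had none. In BRIP1 they stood at 68.4, 73.6 and 166 kb, in introns 9, 10 and 17. In RAD51B, 3 of the 4 lay outside the main transcript, with pileups of 6, 7 and 5.

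At gene ends, 38 of the 142 terminal peaks (26.8%, 20.2 to 34.6) lay at the end of the main transcript and the rest at ends of other annotated transcripts, many of which lie inside the gene. In other genes the share at the main end was 41.6%. Peaks at the main end had a median pileup of 27.5, beside 20 in other genes, and those at other ends 13, beside 14. Of all terminal peaks, 26.8% lay at an opposite-strand gene, beside 23.8% in other genes, and cannot be assigned to 1 gene of the pair. At the main end 1 of 38 was A-rich (2.63%, 0.466 to 13.5) and 55.3% (39.7 to 69.9) had a signal, beside 3.86% and 66.8% in other genes. At other ends 43 of 104 (41.3%, 32.4 to 51.0) were A-rich and 27.9% had a signal, beside 31.6% and 35.4%. The terminal peaks at other ends were thus closer to the intronic peaks in A content than to those at the main end. In RAD51C the peak at the main end had a pileup of 17 and 6 A, and of its 3 peaks at other annotated ends those of 39 and 38, 1309 bp and 40295 bp upstream, were A-poor as well with 5 and 2 A, while that of 8, 25157 bp upstream, had 10 A.

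No peak was found at the main end of BRIP1, WRN, NBN, FANCB, FANCM and GEN1, 6 of 42 genes, where 13.9% of all genes with a terminal peak lacked one. In NBN the strongest terminal peak, of 38, lay 232 bp upstream of the main end, just outside the window, in WRN, of 20, it lay 2462 bp upstream, and in FANCB, of 20, it lay 9204 bp past it. In FANCM and GEN1 the strongest terminal peaks, of 16 and 20, were A-rich with 9 and 8 A, the only strongest terminal peaks of the 42 genes that were. GEN1 had its strongest peaks among the exonic ones, of 29, 28 and 28, at 30.9 to 32.0 kb from the start. All 12 peaks of GEN1 lay in another annotated gene, the strongest terminal one in SMC6 on the opposite strand, so they cannot be assigned to GEN1.

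Intronic peaks were lower than terminal ones in most genes. The median pileup was 10 for intronic, 12.5 for exonic and 16 for terminal peaks, beside 8, 13 and 17 in other genes. Of the 34 genes with an intronic peak, 6 (BRCA1, RAD51B, RAD54B, RMI2, FANCB and FANCM) had one at least as high as their strongest terminal peak, where 23.3% of all genes with both did. With intronic peaks in no other gene, it was 5 of 29 genes, without BRCA1, where 17.1% of all genes did. The terminal peaks were not limited in this way. Of the strongest terminal peaks of the 42 genes, 19 lay at an opposite-strand gene, so their heights may not belong to these genes. Of the 28 intronic peaks with a pileup of at least 20, 9 lay in no other gene and 12 at an opposite-strand gene, 8 of the latter with a signal on that strand, and 7 of the 28 were A-rich. In no other gene, the intronic peaks had a median pileup of 9 and a highest of 42, and in another gene 13 and 39.

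**Figure D5:**
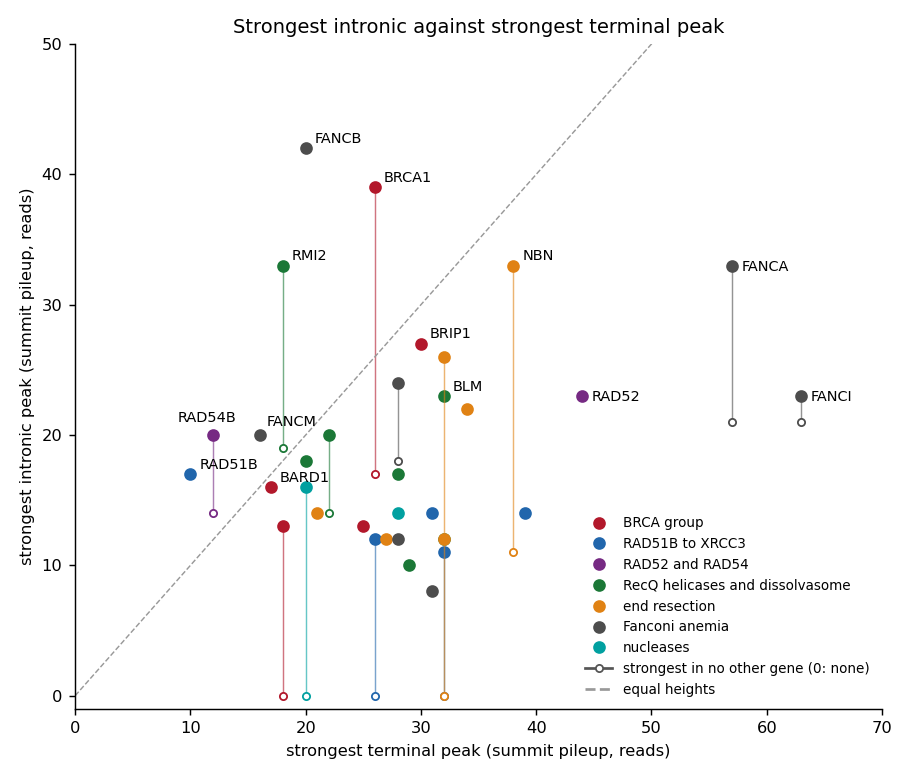
Summit pileup of the strongest intronic against the strongest terminal peak of the 34 genes with an intronic peak, coloured by role; open circles give the strongest intronic peak in no other gene where it is lower (0 where there is none), and the dashed line marks equal heights. FANCB (42 against 20), BRCA1 (39 against 26) and RMI2 (33 against 18) are farthest above the line, and the open circle of BRCA1, at 17, is below it. Terminal peaks were not limited to those in no other gene, and that of FANCB lay in NPM1P9.

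The same counts were made for 31 other genes of the pathway. They held 226 intronic peaks, 152 of them A-rich (67.3%), and 11 had none. In the 30 that could be ranked, which leaves out MCM8 for want of a terminal peak, the 222 intronic peaks compare with 202.7 from the neighbours' means, a ratio of 1.10, and 4 were at or above the 90th percentile. SPIDR, a scaffold that binds BLM, and BABAM2, a subunit of the BRCA1-A complex, had the most, 62 against a mean of 46.0 and 54 against 43.7. RFWD3, a ubiquitin ligase of the Fanconi pathway, with 10 against 5.36, and BRCC3, a deubiquitinase of the BRCA1-A complex, with 9 against 5.49, ranked highest for their length.

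For the whole list, the median summit pileup was 9 and the lowest −log10 q was 1.30, and the peaks of the 42 genes had −log10 q values from 1.57 to 89.6 with a median of 7.37. As a check of the labelled cell line, the 5 neuroblastoma genes PHOX2A, HAND2, GATA3, ISL1 and MYCN all had a terminal peak, with pileups from 16 to 114. Of 5 genes of other tissues, PTPRC and KRT5 had none, and ALB, MYOD1 and COL1A1 had 3, 11 and 14. CDK12 and CDK13 had terminal peaks of 22 and 34, which cannot show the knockdown because the list pools all libraries.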

How the data were processed

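Poly(A) 3′-seq libraries (QuantSeq REV) of IMR-32 cells were sequenced by the authors, who mapped the reads to GRCh38 with STAR 2.5.1b, downsampled the libraries because they had been processed in 2 batches, merged them and called peaks once with MACS2 2.1.1, with reads extended to 100 bp. deepTools 2.5.4, named in the submitters' processing notes, made coverage tracks not used here. The deposited fold is the ratio of summit pileup to local background. The deposited p-value and q-value are −log10 values of that pileup against that background, and the deposited score is a rescaled form of the q-value. Whether the study's filter on A stretches was applied is not stated for this list. Of the members' 631 peaks, 33 had an A stretch (25 bases, at most 3 mismatches, within 50 bases downstream), and 27 of those had none of 12 hexamers within 100 bases upstream, the combination that filter removes.

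The members and lists were chosen with earlier results of these data known. Whole-number pileups were recovered from fold and p-value (largest miss of the −log10 p-value 0.000168). Genes and transcripts are those of GENCODE 44, where the study used version 27, and the main transcript is the annotation's canonical one. Every one of the 42 members is named by role, with full values for those with the most and fewest intronic peaks, the highest and lowest ranks and the strongest peaks, and the other pathway genes by counts with 4 named. Some items the rules name, a sequence among them, are not reported here. No test was made, since the list has no value per library. The libraries were downsampled to the size of the smallest, and that size is unknown. Wilson intervals (95%) cover counting error only, peaks of 1 gene not being independent, and all comparisons with other genes are descriptions. The steps were tested on simulated data, where 100% of 2807 pileups, 10 classes, 2000 signals and 2000 A counts were right. The simulated pileups came from the formula that the recovery inverts and covered a narrower range than the list. Python 3.11.15, numpy 2.4.6, scipy 1.17.1 and matplotlib 3.10.9 were used. The 48 alternatives changed the q-value limit, peak position, windows, transcripts, overlaps, neighbours, A limit and hexamers.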

Additional observations from a re-analysis of the deposited data

How the results depend on the processing

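No paired analysis was possible because every peak has a single value over the merged reads, and for the same reason no library could be left out. Of 48 alternatives over 7 results, 34 left the value inside its interval or, for counts, within 1.5 times, and 14 moved it. At a −log10 q of at least 20, 54 peaks remained in the 42 genes, 14 of them intronic (25.9%), 27 genes had a terminal peak, 14.3% of the intronic peaks were A-rich, and 7 of 27 ranked genes were at or above the 90th percentile of their neighbours. With 1 transcript per gene the intronic share was 72.2% and 2 genes (XRCC3 and RMI1) were at or above it, and with only A-poor peaks 2 genes (BRCA1 and RAD52) were. The A-rich share of intronic peaks was 76.8% with at least 6 A in 10, 75.0% in no other gene and 4.24% when read from the summit, which lies inside the peak and not at its 3′ edge. The share of terminal peaks with a signal was 56.3% with any of 12 hexamers and 45.1% within 100 bases upstream. The cause of these moves was not tested. A peak counts once whatever its height, pileups cannot pass 200, and a peak shared with an opposite-strand gene cannot be given to either.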
